A study of Mus musculus with 12 samples.

Results

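Voltage-gated calcium channels were followed in embryonic mouse ventricles through 9 of their subunit genes: the T-type pore genes Cacna1g and Cacna1h, the L-type pore genes Cacna1c and Cacna1d, the beta subunit genes Cacnb1, Cacnb2 and Cacnb3, and the alpha2delta subunit genes Cacna2d1 and Cacna2d2. They were chosen by name from 38293 gene identifiers, with earlier results of these libraries known. In those results Cacna1g and Cacna2d2 differed between the Mib1 mutant and its control. The values of the 9 genes below are therefore a description of genes picked with results in view, and their p-values give only their place in a fit across all genes. All 9 genes had reads in every library, with 46 as the lowest count, and all 9 were among the 13964 genes that passed the filter on low counts.

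RNA came from ventricles at stage E15.5, with 4 genotypes and 3 pools for each genotype, each pool holding 4 pairs of ventricles. The Mib1 mutant (Mib1_R530X/Mib1_flox; Tnnt2-Cre/+) carried a Mib1 stop allele over a loxP-flanked allele. Its control, called the Cre control here (Mib1_flox/+; Tnnt2-Cre/+), carried a loxP-flanked and a normal Mib1 allele, so the same Cre transgene was present in both groups. Tnnt2-Cre recombines loxP sites in cardiomyocytes, so that in the Mib1 mutant other cells keep the loxP-flanked allele beside the stop allele. In the Cre control the loxP-flanked allele is exposed to the same Cre, beside a normal allele. The Mib1 mutant and its control thus differ by a stop allele in place of a normal allele. The triple heterozygote carried the Mib1 R530X stop allele with missense alleles that its sample labels call Asxl3_M1415V and Apcdd_V150I, each with a normal allele, and had no Cre transgene. The design text gives the Asxl3 allele as M1361V, and this difference in numbering was not resolved. WT ventricles carried none of these alleles. The age is labelled for the Mib1 mutant and the triple heterozygote and given for all 4 groups by the protocol. The pools hold different ventricles, but whether pools shared litters is not stated, and p-values measure only the spread between pools.

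A voltage-gated calcium channel opens when the membrane depolarises. Its alpha1 subunit forms the pore. In L-type channels a beta subunit inside the cell and an alpha2delta subunit outside the cell control how many channels reach the surface and how they gate, whereas T-type pores can conduct without them. L-type current through the Cacna1c channel triggers contraction of ventricular myocytes. T-type current is a feature of the embryonic ventricle that declines after birth and persists in the pacemaker and conduction tissue. Mib1 encodes a ubiquitin ligase that lets Notch ligands signal.

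The sequences that set the pore classes apart are the pore loops of repeats III and IV, shown here because Cacna1g and Cacna1h are described as one class and Cacna1c and Cacna1d as the other. Capitals mark the codon of the acidic residue of the selectivity filter. In GENCODE M21 transcripts on GRCm38, 33-base stretches of coding sequence read as follows, 5′ to 3′ on the minus strand of each chromosome.
Cacna1g repeat III: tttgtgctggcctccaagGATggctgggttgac
Cacna1h repeat III: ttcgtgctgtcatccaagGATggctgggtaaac
Cacna1c repeat III: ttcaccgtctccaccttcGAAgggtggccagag
Cacna1d repeat III: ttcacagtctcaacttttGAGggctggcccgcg
Cacna1g repeat IV: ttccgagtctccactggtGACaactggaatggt
Cacna1h repeat IV: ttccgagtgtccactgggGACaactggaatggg
Cacna1c repeat IV: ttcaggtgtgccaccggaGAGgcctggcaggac
Cacna1d repeat IV: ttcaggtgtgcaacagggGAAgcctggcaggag
The marked codons encode aspartate in Cacna1g and Cacna1h and glutamate in Cacna1c and Cacna1d. The Cacna1g stretches lie at chr11:94426459-94426491 in exon 24 and at chr11:94416415-94416447 in exon 32 of Cacna1g-207. Those of Cacna1h lie at chr17:25383496-25383528 in exon 24 and at chr17:25377771-25377803 in exon 31 of Cacna1h-201. Each of the Cacna1c and Cacna1d stretches is split over 2 exons by an intron, exons 27 and 28 for repeat III and exons 35 and 36 for repeat IV, in Cacna1c-204 and Cacna1d-207. Their outer ends are chr6:118654455-118656144 and chr6:118614050-118624371 for Cacna1c, and chr14:30099243-30100728 and chr14:30075944-30077683 for Cacna1d.

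Over whole proteins translated from the same transcripts, Cacna1g and Cacna1h were 63.4% identical and Cacna1c and Cacna1d 70.3%, whereas a T-type and an L-type protein shared 30.7% to 33.3%. The reads were 60 bases long, so the members were compared in 60-base windows to see whether reads could be mistaken for those of another gene. No window was shared between any of the 9 genes. Of 10536 windows in Cacna1g, 9 also occurred in the third T-type gene Cacna1i, which had no read in any library. Cacnb2 shared 5.5% and Cacna1d 4.09% of their windows with genes on the opposite strand, and the other members 1% or less. The libraries mark the strand, but the sources used here do not say whether counting used it. The overlapping genes that the table lists had 0 to 35 reads over all 12 libraries, against 740 to 8717 for the members they overlap.

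Library totals ran between 10103548 and 22157720 counts, and the next highest was 14774121. Mib1, the altered gene, was at 54.8, 50.1 and 51.8 CPM (counts scaled to a fixed library total) in the Mib1 mutant pools, against 108, 107 and 101 CPM in the Cre control pools. It was at 74, 57.9 and 74.1 CPM in the triple heterozygote pools, against 145, 126 and 136 CPM in the WT pools. Both falls passed the test (log2 -1.01 ± 0.09 SE, adjusted p = 4.75e-05, and -0.99 ± 0.09 SE, adjusted p = 0.000276; edgeR quasi-likelihood test). Mib1 was 0.37 lower on the log2 scale in the Cre control than in WT, which did not pass (-0.37 ± 0.09 SE, adjusted p = 0.15). The female transcript Xist was nearly absent from replicate 1 of the Mib1 mutant (0.095 CPM) and replicate 1 of the Cre control (0.387 CPM), against 71.5 to 458 CPM elsewhere, and results that change without this pair of pools are given as such.

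Set against the Cre control, the Mib1 mutant had Cacna1g higher and Cacna2d2 lower, while the other 7 genes did not pass the threshold, an adjusted p below 0.05 over all genes tested. That is 2 of 9 members called, against 1.5% of all 13964 genes (0.909% higher and 0.594% lower). Because the members were picked with this comparison known, the count is not read against that background. The median log2 fold change of the 9 genes was 0.13, and that of all genes 0.00. In 3 members every mutant pool lay above every Cre control pool, in 1 every mutant pool lay below, and in 5 the pools overlapped, where 16.6% of all genes had pools that did not overlap. The ventricles were sequenced as whole tissue, so more or fewer cells of a type and more or less RNA per cell cannot be told apart in any of these values.

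**Figure D1:**
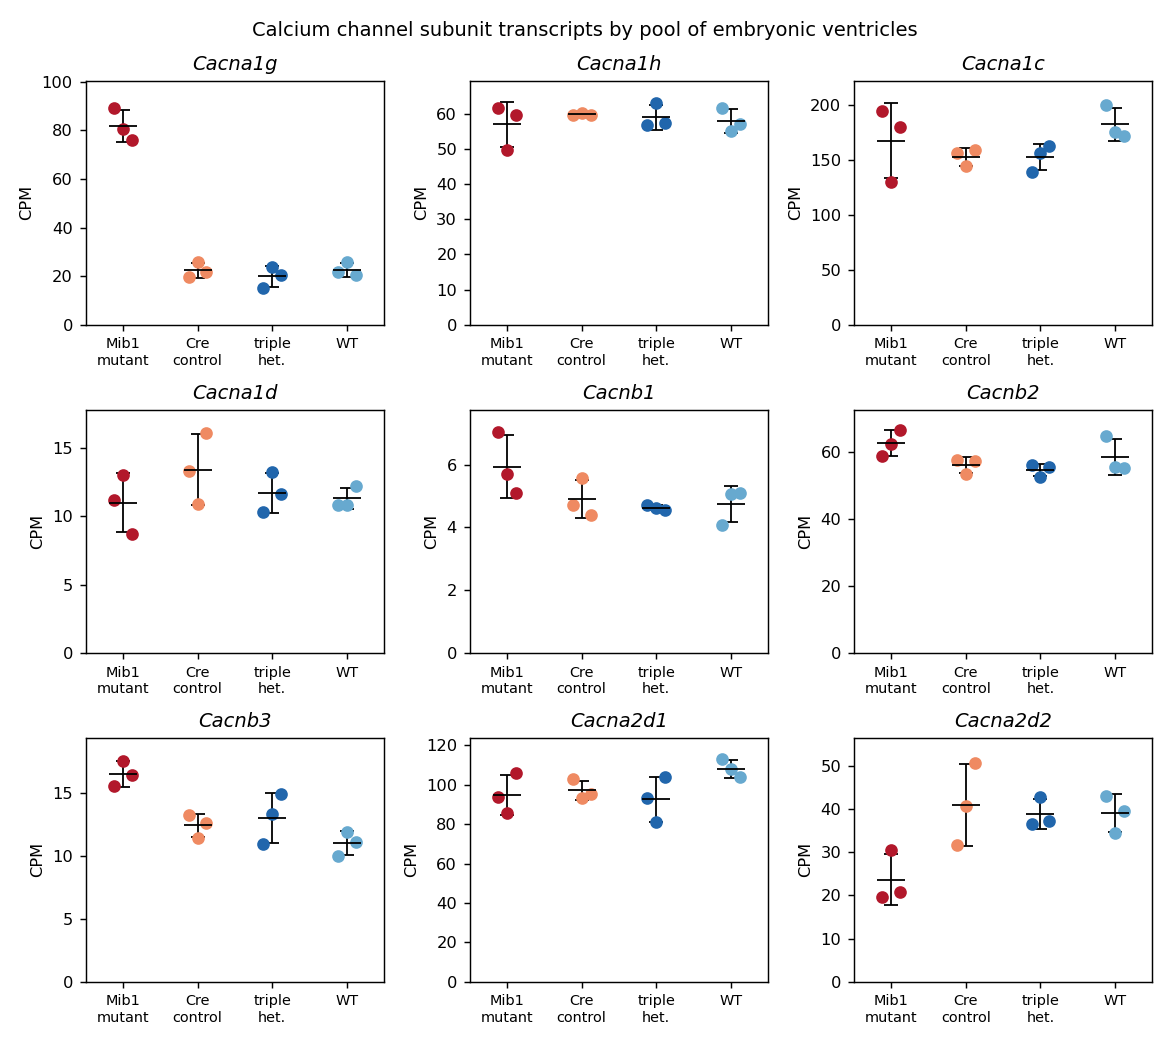
CPM of the 9 subunit genes in each pool (dots), with the mean and SD of 3 pools (black bars), for the Mib1 mutant, Cre control, triple heterozygote (triple het.) and WT, each axis starting at 0. Cacna1g sits at 76.1 to 89.2 CPM in the mutant pools and at 15.2 to 25.9 CPM in the other 9.

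Cacna1g (ENSMUSG00000020866, chromosome 11, 94408391 to 94474198) encodes the T-type pore best known from pacemaker and conduction tissue. Its values were 89.2, 80.4 and 76.1 CPM in the Mib1 mutant pools, against 19.6, 25.9 and 21.8 CPM in the Cre control pools. All 3 mutant pools were high and the groups were far apart, at 81.9 ± 6.68 CPM in the mutant and 22.4 ± 3.17 CPM in its control (SD, n = 3 each). The fitted difference was a rise of 3.65-fold (log2 1.87 ± 0.14 SE, 95% interval 1.57 to 2.17, edgeR adjusted p = 7.59e-06). The rise kept its call in all 14 alternative analyses, with log2 values between 1.71 and 1.98. The lowest of these, 1.71, came from leaving out both pools with little Xist.

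Cacna1h (ENSMUSG00000024112, chromosome 17, 25374285 to 25433783), the other T-type pore gene of these ventricles, did not pass. It was at 61.8, 49.8 and 59.6 CPM in the Mib1 mutant pools and at 59.7, 60.3 and 59.6 CPM in Cre control pools. Mutant pool 2 was low and the other mutant pools lay around the control values. The difference was log2 -0.07 ± 0.09 SE, with a 95% interval of -0.25 to 0.11 (edgeR adjusted p = 0.781). A p-value that misses the threshold does not show that levels were the same, but this interval excludes a change of the size seen for Cacna1g. Measured per exonic length within each pool, Cacna1g stood at 1.39 ± 0.164 times Cacna1h in the Mib1 mutant and at 0.36 ± 0.0488 times Cacna1h in its control (SD, n = 3 each). The ratio was above 1 in every mutant pool, at 1.23 to 1.56, and below 1 in every Cre control pool, at 0.316 to 0.413.

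The L-type pore genes did not pass in this comparison. Cacna1c (ENSMUSG00000051331, chromosome 6, 118587240 to 119196418), which carries the main calcium current of ventricular myocytes, was at 195, 130 and 180 CPM in the Mib1 mutant pools and at 157, 145 and 159 CPM in Cre control pools. The mutant pools scattered on both sides of the controls (log2 0.13 ± 0.12 SE, interval -0.12 to 0.39, edgeR adjusted p = 0.684). Cacna1d (ENSMUSG00000015968, chromosome 14, 30039939 to 30491455), an L-type pore known for its part in pacemaking, was at 11.2, 13 and 8.71 CPM in the mutant pools and at 13.3, 10.9 and 16.1 CPM in Cre control pools. These groups overlapped too, with a log2 difference of -0.30 ± 0.17 SE and an interval of -0.66 to 0.05 (edgeR adjusted p = 0.448).

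Seen together, the pore genes had a different makeup in the mutant. Per exonic length, Cacna1g made up 34.89%, 39.32% and 32.89% of the 4 pore transcripts in the Mib1 mutant pools, against 11.72%, 15.54% and 12.62% in the Cre control pools. It was 10.2% to 13.5% in the triple heterozygote and 11.4% to 14.7% in WT. The summed level of the 4 genes was 22.7 ± 2.52 RPKM in the mutant and 16.7 ± 0.327 RPKM in the Cre control (CPM per kilobase of exon, SD, n = 3 each). The shares of Cacna1h were 25.7 ± 0.916% in the mutant and 36.8 ± 0.892% in the Cre control, while the plain levels of Cacna1h overlapped, as given above. With Cacna1g higher, the other shares of a fixed sum have to be lower.

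**Figure D2:**
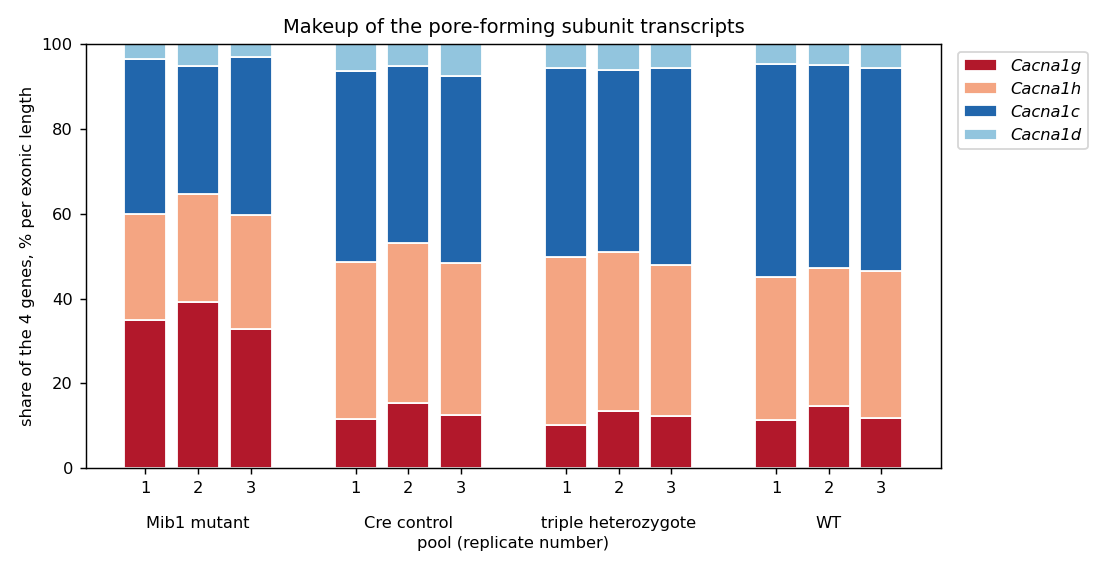
Share of the 4 pore-forming subunit genes, in percent of their summed CPM per kilobase of exon, in each pool of the Mib1 mutant, Cre control, triple heterozygote and WT. The Cacna1g segment holds 32.89% to 39.32% in the 3 mutant pools and 10.22% to 15.54% in the other 9.

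None of the beta subunit genes passed, although Cacnb3 and Cacnb2 had pools that did not overlap. Cacnb3 (ENSMUSG00000003352, chromosome 15, 98630840 to 98644529) was at 15.49, 17.52 and 16.38 CPM in the Mib1 mutant pools and at 13.24, 11.43 and 12.65 CPM in those of the Cre control. Every mutant pool was above every control pool, with a log2 difference of 0.40 ± 0.13 SE and an interval of 0.13 to 0.67, and the unadjusted p of 0.00605 became 0.139 over all genes (edgeR). Cacnb2 (ENSMUSG00000057914, chromosome 2, 14603088 to 14987908), the main beta subunit of the heart, was at 58.7, 62.2 and 66.5 CPM in the mutant pools and at 57.5, 53.3 and 57.3 CPM in Cre control pools. Here the groups were apart by a narrow gap (log2 0.16 ± 0.08 SE, interval -0.01 to 0.33, edgeR adjusted p = 0.408). Cacnb1 (ENSMUSG00000020882, chromosome 11, 98001508 to 98023034), the beta subunit of skeletal muscle, was at 7.03, 5.69 and 5.09 CPM in the mutant pools and at 4.73, 5.58 and 4.4 CPM in Cre control pools, which overlapped (log2 0.28 ± 0.18 SE, interval -0.10 to 0.65, edgeR adjusted p = 0.529). The beta genes summed to 10.1 ± 0.25 RPKM in the mutant and 8.42 ± 0.291 RPKM in its control (SD, n = 3 each). Skeletal muscle markers, 8 genes in all, summed to 10.4 to 17.3 CPM in the mutant pools and 10.2 to 13.3 CPM in the Cre control pools, with 0 of 4 tested called by edgeR.

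Cacna2d2 (ENSMUSG00000010066, chromosome 9, 107399612 to 107529343), an alpha2delta subunit, was at 19.7, 30.4 and 20.7 CPM in the Mib1 mutant pools and at 31.6, 40.7 and 50.6 CPM in Cre control pools. All mutant pools were below all control pools, but both groups were wide, and mutant pool 2 came close to control pool 1. Cacna2d2 fell by 0.81 on the log2 scale (-0.81 ± 0.17 SE, interval -1.17 to -0.44, edgeR adjusted p = 0.0286), to 0.572 times the control level. Its call was lost in 5 of 14 alternatives. The adjusted p was 0.0836 when replicate 2 of the Cre control was left out, 0.138 when its replicate 3 was, 0.124 without Mib1 mutant replicate 1, 0.1 without Mib1 mutant replicate 3, and 0.12 with only the libraries of these groups in the fit. In those settings the log2 value was between -0.81 and -0.62, and over all 14 alternatives the adjusted p was 2.4e-05 to 0.138. Cacna2d1 (ENSMUSG00000040118, chromosome 5, 15934691 to 16374511), the alpha2delta subunit most studied in the heart, was at 93.6, 85.7 and 106 CPM in the mutant pools and at 103, 93.4 and 95.3 CPM in Cre control pools, which overlapped (log2 -0.03 ± 0.09 SE, interval -0.23 to 0.17, edgeR adjusted p = 0.931). Per exonic length, Cacna2d2 made up 27.9 ± 6.73% of the alpha2delta transcripts in the mutant and 39.5 ± 6.48% in its control (SD, n = 3 each), and these shares overlapped between pools, at 23.4% to 35.7% in the mutant and 32.5% to 45.3% in the Cre control.

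**Figure D3:**
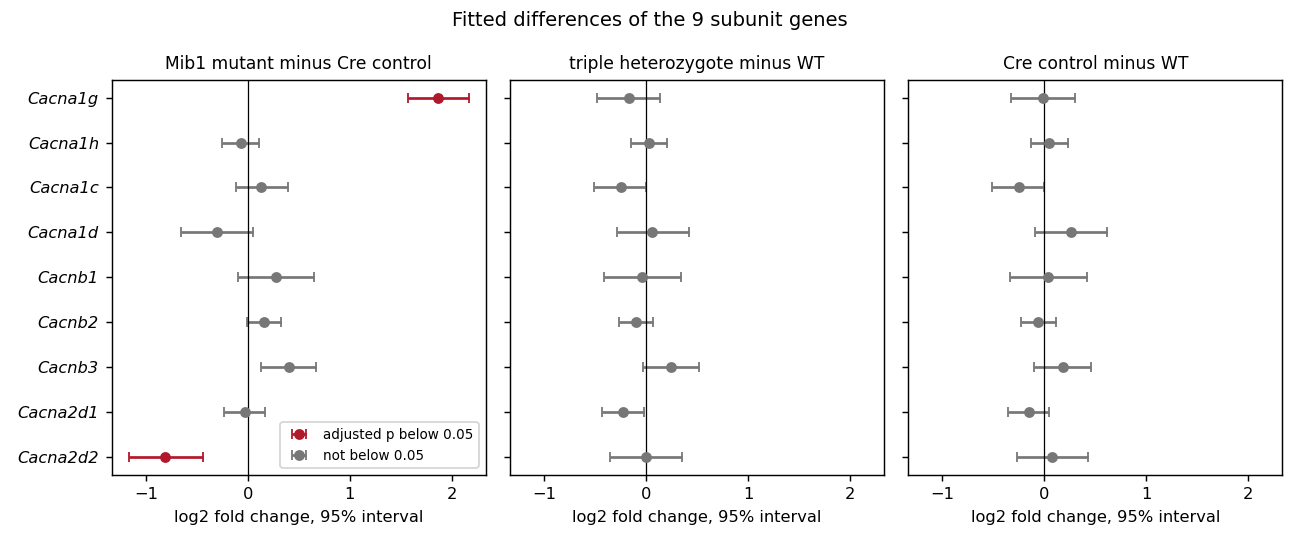
Fitted log2 fold changes (dots) with 95% intervals (bars) of the 9 genes in 3 panels, which are Mib1 mutant minus Cre control, the triple heterozygote minus WT, and Cre control minus WT; red marks an adjusted p below 0.05. Cacna1g at 1.87 and Cacna2d2 at -0.81 in the first comparison are the only red points.

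Levels per exonic length put the 9 genes in one order by mean in the 3 groups other than the mutant. In WT the order was Cacna2d1 (8.7 RPKM), Cacna1c (8.62), Cacna1h (5.94), Cacna2d2 (4.91), Cacnb2 (4.42), Cacnb3 (2.74), Cacna1g (2.24), Cacnb1 (1.05) and Cacna1d (0.892). Of these neighbours, Cacna2d1 and Cacna1c, Cacna2d2 and Cacnb2, Cacnb3 and Cacna1g, and Cacnb1 and Cacna1d overlapped between pools. The Cre control and the triple heterozygote gave the same order by mean. The length used is that of all annotated exons of a gene merged, not of the transcripts present. Orders, ratios and shares between genes depend on that choice. In the mutant, Cacna1g headed the order at 8.08 ± 0.659 RPKM, but its range overlapped that of Cacna1c (7.94 ± 1.61) and the range of Cacna1c that of Cacna2d1 (7.65 ± 0.815; SD, n = 3 each). In plain CPM, without a length, Cacna1c averaged 168 ± 34.2 in the mutant and Cacna1g 81.9 ± 6.68 (SD, n = 3 each). Cacna2d2 had rank 7 in the mutant, at 2.97 ± 0.745 RPKM, and rank 4 in the Cre control, at 5.16 ± 1.19 RPKM. The spread between pools was smallest for Cacna1h in the Cre control, with a coefficient of variation of 0.617%, and largest for Cacna2d2 in the mutant, at 25.1%.

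In the triple heterozygote against WT, edgeR called 0 of the 9 genes, and DESeq2 and limma-voom also called 0, against 0.0215% of all genes (3 genes). At an unadjusted p below 0.05 edgeR had 1 of the 9, Cacna2d1, against 8.66% of all genes (1209 of 13964). Cacna2d1 was at 93.4, 80.9 and 104 CPM in the triple heterozygote pools and at 113, 108 and 104 CPM in the WT pools (log2 -0.23 ± 0.09 SE, interval -0.43 to -0.02, edgeR adjusted p = 0.565). Cacna1c was at 139, 157 and 163 CPM in the triple heterozygote pools and at 200, 176 and 172 CPM in the WT pools, and was the only member with every pool below every WT pool (log2 -0.25 ± 0.12 SE, interval -0.51 to 0.00, edgeR adjusted p = 0.576); 16.9% of all genes had pools that did not overlap. Cacna1g was at 15.2, 23.7 and 20.7 CPM in the triple heterozygote pools and at 21.8, 25.9 and 20.4 CPM in the WT pools. The groups overlapped, and the interval of the difference, -0.48 to 0.14 around log2 -0.17, excludes a rise like that in the Mib1 mutant. Cacna2d2 was at 36.5, 42.8 and 37.3 CPM in the triple heterozygote pools and at 43.1, 34.4 and 39.5 CPM in the WT pools (log2 0.00 ± 0.16 SE, interval -0.35 to 0.35, edgeR adjusted p = 1). The other 5 members overlapped between the groups, with log2 differences between -0.10 for Cacnb2 and 0.24 for Cacnb3. Cacnb3, the widest of them, was at 10.89, 13.29 and 14.86 CPM in the triple heterozygote pools and at 9.97, 11.87 and 11.10 CPM in the WT pools (interval -0.03 to 0.52, edgeR adjusted p = 0.601).

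The difference between these effects, the mutant effect minus the triple heterozygote effect, was tested in the same fit. The effects start from unlike controls, because the Cre control carries a loxP-flanked allele exposed to Cre and WT does not. This test called 1 of 9 members, Cacna1g, against 0.516% of all genes. At an unadjusted edgeR p below 0.05 it had 4 of 9, against 13.8% of all genes (1928 of 13964). The members were picked with the mutant comparison known, which is part of this contrast. These counts are therefore not read against those backgrounds. For Cacna1g the effects differed by log2 2.04 ± 0.20 SE (interval 1.60 to 2.47, edgeR adjusted p = 0.000711). For Cacna2d2 they differed by -0.81 ± 0.24 SE (interval -1.32 to -0.30, edgeR adjusted p = 0.192) and did not pass. Without Mib1 mutant replicate 2 the test called 3 members, adding Cacna2d2 (-1.04, adjusted p = 0.0285) and Cacna1c (0.54, adjusted p = 0.0398), and with no filter on low counts it called Cacna2d2 as well (-0.83, adjusted p = 0.0057).

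The control groups differed from each other by the Cre transgene and a loxP-flanked allele, which is exposed to Cre in cardiomyocytes. Their comparison shares the Cre control pools with the mutant comparison and the WT pools with the triple heterozygote comparison. Between Cre control and WT, edgeR, DESeq2 and limma-voom each called 0 of the 9 genes, and 0 of the 9 had an unadjusted edgeR p below 0.05, against 0.279% of all genes called and 8.43% (1177 genes) at that unadjusted p. The log2 difference of Cacna1g was -0.01 (interval -0.33 to 0.30), with the 3 Cre control pools at 19.6 to 25.9 CPM and the WT pools at 20.4 to 25.9 CPM. In 2 members, Cacna1c and Cacna2d1, every Cre control pool lay below every WT pool, where 19.1% of all genes had pools that did not overlap. Cacna1c was at 145 to 159 CPM in the Cre control and 172 to 200 CPM in WT (log2 -0.25 ± 0.12 SE, edgeR adjusted p = 0.599), and Cacna2d1 at 93.4 to 103 CPM in the Cre control and 104 to 113 CPM in WT (log2 -0.15, edgeR adjusted p = 0.686). The other 6 members overlapped, with log2 differences between -0.06 for Cacnb2 and 0.26 for Cacna1d. Cacna1d was at 10.9 to 16.1 CPM in the Cre control and 10.8 to 12.2 CPM in WT (interval -0.09 to 0.62, edgeR adjusted p = 0.695).

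Of the 17 other genes for voltage-gated calcium channel subunits, 12 had too few reads to test, with 0 to 90 reads each over all 12 libraries. Cacna1i and Cacna2d4 had no read, which allows up to 0.0203 CPM (3 counts over all libraries, counting error only). None of the 5 tested genes (Cacna1a, Cacnb4, Cacng4, Cacng6 and Cacng7) was called by edgeR, DESeq2 or limma-voom in any of the 4 contrasts. At an unadjusted p below 0.05 edgeR had 1 of them in the mutant comparison, against 14% of all genes (1954 of 13964), and 1 in the difference between effects, against 13.8%. It had 0 in the triple heterozygote comparison (8.66% of all genes) and 0 between controls (8.43%). Counts of 1 in 5 genes cannot be told from these backgrounds. That gene was Cacng6, which encodes a gamma subunit. It was at 0.713, 0.839 and 1.29 CPM in the Mib1 mutant pools and at 2.37, 1.86 and 2.13 CPM in Cre control pools, with every mutant pool below (log2 -1.12 ± 0.30 SE, interval -1.76 to -0.47, edgeR adjusted p = 0.0855).

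Genes whose products bind or modify the channels were taken as a list of 20, of which 17 were tested, and edgeR and limma-voom called 0 in every contrast, as did DESeq2 outside the mutant comparison. Unadjusted, edgeR had 3 of the 17 below 0.05 in the mutant comparison, against 14% of all genes, and 2 in the triple heterozygote comparison, against 8.66%. It had 4 in the difference between effects, against 13.8%, and 1 between controls, against 8.43%. None of these counts is read as a result about the list. In the mutant comparison the smallest p-values were those of Cav3, Camk2d and Stac2. Cav3, the caveolin of muscle membranes, was at 53, 67.9 and 65.8 CPM in the Mib1 mutant pools and at 75.5, 86.2 and 75.5 CPM in Cre control pools (log2 -0.34 ± 0.10 SE, edgeR adjusted p = 0.116), and DESeq2 called it (-0.35, adjusted p = 0.0474). Camk2d, the kinase that phosphorylates L-type channels, averaged 212 ± 14.4 CPM in the mutant and 244 ± 4.92 CPM in the Cre control (log2 -0.20, edgeR adjusted p = 0.178). Stac2, an adaptor that binds L-type channels, averaged 5.34 ± 0.814 CPM in the mutant and 3.56 ± 0.406 CPM in its control (SD, n = 3 each; log2 0.58, edgeR adjusted p = 0.241). In the other contrasts the smallest p-values belonged to Akap7, Ahnak, Camk2d, Cav3, Rrad and Rem2. Rrad, a small GTPase that restrains L-type current, differed by log2 0.31 ± 0.11 SE between Cre control and WT (174 ± 12.4 CPM in the Cre control, 140 ± 13.8 CPM in WT, SD, n = 3 each; edgeR adjusted p = 0.413). Akap7, an anchor of the kinase that stimulates the channels, had the smallest p between triple heterozygote and WT (23.1 ± 3.73 CPM in the triple heterozygote, 28.7 ± 2.13 CPM in WT, SD, n = 3 each; log2 -0.32, edgeR adjusted p = 0.559). Ahnak, a scaffold that binds beta subunits, led the list in the difference between effects (log2 0.56 ± 0.17 SE, edgeR adjusted p = 0.21).

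The partners that release calcium from the sarcoplasmic reticulum or clear it from the cytosol were all tested, 8 of 8. Again edgeR and limma-voom called 0 in every contrast, and DESeq2 0 outside the mutant comparison. At an unadjusted p below 0.05 edgeR had 4 of them in the mutant comparison, against 14% of all genes, and 3 in the triple heterozygote comparison, against 8.66%. It had 2 in the difference between effects, against 13.8%, and 3 between controls, against 8.43%. The list was chosen with earlier results known, and these counts are not read as a result about it. In the mutant comparison Pln, the inhibitor of the reticulum's calcium pump, was at 1983, 1994 and 1970 CPM in the Mib1 mutant pools and at 2189, 2478 and 2306 CPM in Cre control pools (log2 -0.23 ± 0.07 SE, edgeR adjusted p = 0.106), and DESeq2 called it (adjusted p = 0.0187). Trdn, which anchors the release complex, averaged 146 ± 4.6 CPM in the mutant and 182 ± 10.3 CPM in the Cre control (log2 -0.32, edgeR adjusted p = 0.146), and the release channel gene Itpr1 averaged 115 ± 15.9 CPM in the mutant and 89.9 ± 14.2 CPM in its control (SD, n = 3 each; log2 0.35, edgeR adjusted p = 0.162). All 8 partners had a negative log2 difference in the triple heterozygote against WT, with a median of -0.19, and all 8 between Cre control and WT, with a median of -0.20, beside medians of 0.00 and -0.00 over all genes. Both comparisons use the same WT pools, so these signs are not independent and are not read as a result about the list. Casq2, the calcium store protein, had the smallest p in each of them: it averaged 857 ± 18.7 CPM in the triple heterozygote, 842 ± 32.9 CPM in the Cre control and 1009 ± 49.2 CPM in WT (SD, n = 3 each; edgeR adjusted p = 0.559 and 0.355). Ryr2, the release channel opened by L-type calcium entry, averaged 560 ± 50.2 CPM in the triple heterozygote, 570 ± 55.4 CPM in the Cre control and 725 ± 102 CPM in WT (SD, n = 3 each; adjusted p = 0.565 and 0.588).

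Among 11605 tested genes with a mean of at least 2 CPM, those most like Cacna1g over the 12 libraries were looked up by the mean absolute difference of log2 CPM after centring each gene. Cacna1g itself deviated from its own mean by 0.72 on average. Among the nearest were Sntg2, a syntrophin of the dystrophin complex (0.18), Kif1a, a kinesin motor (0.18), Adamtsl2, a secreted matrix protein (0.25), and Eln, elastin (0.33). Kif1a was at 73.7, 53.4 and 64.7 CPM in the Mib1 mutant pools and at 18.3, 16 and 19.7 CPM in Cre control pools, and Sntg2 at 5.89, 4.94 and 4.57 CPM in the mutant pools and 1.45, 1.68 and 1.49 CPM in the Cre control pools. In these 4 genes every mutant pool lay above every pool of the other 3 groups. For Cacna2d2, with an average deviation of 0.31, the nearest were Fermt3, an integrin activator of blood cells (0.10), Bex1 (0.13), Ank1, an ankyrin (0.13), Hspb3, a small heat shock protein of muscle (0.14), and Irx2, a homeobox factor (0.14). Irx2 was at 14.6, 18.8 and 14.3 CPM in the Mib1 mutant pools and at 25.7, 28.1 and 23.9 CPM in Cre control pools. Bex1, Ank1 and Irx2 were called lower in the mutant comparison. Fermt3 and Hspb3 were not (edgeR adjusted p = 0.136 and 0.103). These lists were selected by likeness, which the mutant pools dominate, and are a description.

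**Figure D4:**
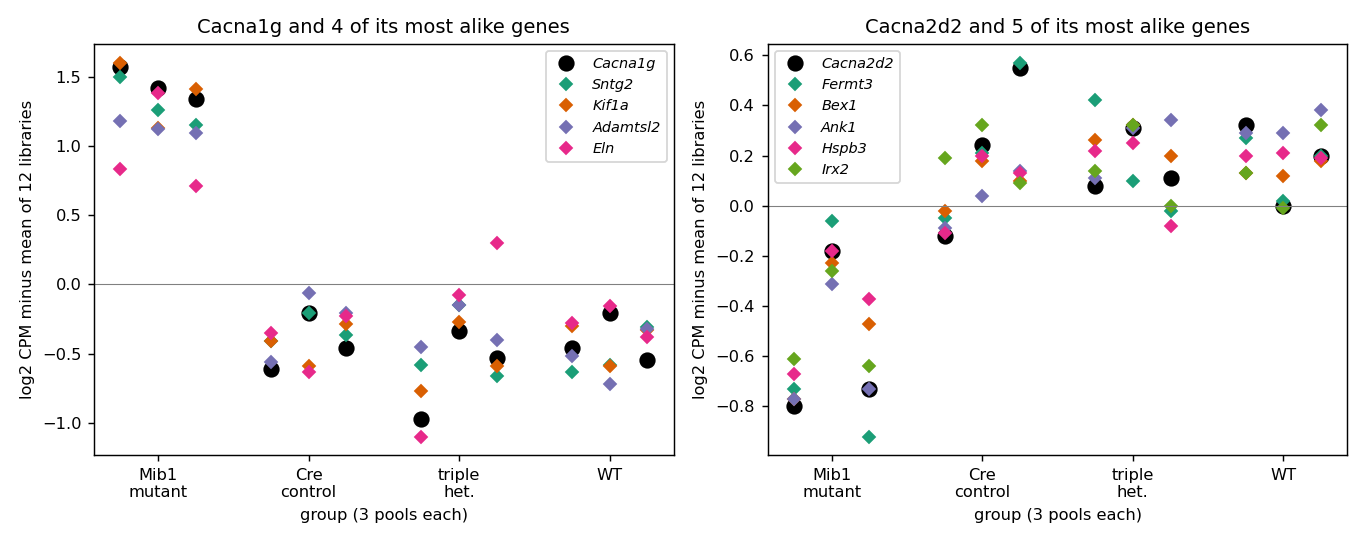
Log2 CPM minus its mean over 12 libraries for Cacna1g (left) and Cacna2d2 (right), black circles, and 4 and 5 of the genes most like them (coloured diamonds), in the 3 pools of the Mib1 mutant, Cre control, triple heterozygote (triple het.) and WT. Mutant pools are the highest for the genes on the left. On the right, 1 mutant pool comes close to the lowest Cre control pool for Cacna2d2, Fermt3 and Hspb3.

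Marker genes of cell types were set beside these results. The 9 ventricular cardiomyocyte markers summed to 39737 to 49393 CPM in the Mib1 mutant pools and to 49465 to 54971 CPM in the Cre control pools, with 0 of 9 called by edgeR. The 7 pacemaker and conduction markers used here summed to 139 to 152 CPM in the mutant pools and to 157 to 187 CPM in the Cre control pools. Of these, Gja5, the connexin of trabecular and conducting myocardium, fell (60.9, 37.4 and 45.4 CPM in the mutant pools, 125, 92.6 and 114 CPM in the Cre control pools; log2 -1.21, edgeR adjusted p = 0.000291) and Id2 rose (72.6, 84.5 and 78.2 CPM in the mutant pools, 48.9, 48.8 and 52.5 CPM in the Cre control pools; log2 0.65, edgeR adjusted p = 0.000273). Gja5 alone carried the lower sum. The other 6 markers summed to 91.1 to 109 CPM in the mutant pools and to 62.6 to 69.4 CPM in the Cre control pools. Id2 was the largest part of these sums. Because this split was made after the values were seen, it is not set beside Cacna1g. The pacemaker channel gene Hcn4 was at 4.94 to 5.61 CPM in the mutant pools and 4.87 to 7.44 CPM in Cre control pools. Tbx3 was at 11, 17.2 and 8.45 CPM in the mutant pools and 5.02, 8.59 and 7.1 CPM in Cre control pools. Shox2 was at 1.81, 2.61 and 1.72 CPM in the mutant pools and 1.45, 1.95 and 2.03 CPM in Cre control pools. The pools of Tbx3 and of Shox2 overlapped, and neither gene was called by edgeR. The pacemaker markers Isl1 and Cntn2 reached at most 0.694 CPM in any library. The 8 atrial markers summed to 975 to 1721 CPM in the mutant pools and to 1801 to 1863 CPM in the Cre control pools, with 1 called, Nppa, which fell (log2 -1.41, edgeR adjusted p = 0.00485). Smooth muscle markers, 6 genes, overlapped at 1258 to 2052 CPM in the mutant pools and 1390 to 1484 CPM in the Cre control pools. Acta2 was the largest part, at 1015 to 1711 CPM in the mutant pools and 1175 to 1270 CPM in Cre control pools. Tagln rose (log2 1.37, edgeR adjusted p = 0.000179) and was the only one called. Cnn1 and Lmod1 had every mutant pool above every Cre control pool, Myh11 had every one below, and Smtn overlapped. The 11 neuron and glia markers summed to 10.2 to 13.3 CPM in the mutant pools and to 9.57 to 15.4 CPM in the Cre control pools. The 7 leukocyte markers summed to 41.7 to 54.2 CPM in the mutant pools and to 65.3 to 86.5 CPM in the Cre control pools, with C1qb and Lyz2 called lower. Like Cacna2d2, the leukocyte sums of all mutant pools lay below those of all Cre control pools. The same held for the ventricular cardiomyocyte, atrial, and full pacemaker and conduction sums. Endothelium markers (7 genes) overlapped at 989 to 1187 CPM in the mutant pools and 967 to 1112 CPM in the Cre control pools, as did those of fibroblast and epicardium (8 genes) at 2181 to 2916 CPM in the mutant pools and 2050 to 2240 CPM in the Cre control pools. The 5 erythroid markers overlapped at 1830 to 2416 CPM in the mutant pools and 2241 to 2692 CPM in the Cre control pools. Liver markers summed to at most 0.603 CPM in the mutant pools and 4.67 CPM in Cre control pools, and lung markers to at most 0.585 CPM in the mutant pools and 0.403 CPM in the Cre control pools, with Cldn18 at 0. In the triple heterozygote, the erythroid markers summed to 3623 to 4302 CPM, against 2209 to 2575 CPM in WT pools, and Hba-a1, an alpha globin, rose (log2 0.76, edgeR adjusted p = 0.0351), the only marker called in that comparison. Atrial, smooth muscle and leukocyte sums of the triple heterozygote pools also lay above those of the WT pools (2054 to 2214 against 1682 to 1975 CPM, 1569 to 1725 against 1501 to 1528 CPM, and 76.9 to 83.6 against 61.7 to 72.3 CPM), with none of their markers called. In the difference between effects, the contrast in which Cacna1g passed, edgeR called 3 of 5 erythroid markers lower, Hbb-bt, Hba-a1 (log2 -0.93, adjusted p = 0.0184) and Alas2. It also called Gja5 (log2 -1.26), Nppa (-1.58) and Lyz2 (-1.20) lower and Tagln higher (1.10), with edgeR adjusted p between 0.00815 and 0.0455 for these 4. The part of these cell types in the values of Cacna1g and Cacna2d2 was not tested.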

How the data were processed

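The authors deposited RSEM expected counts per gene, which need not be whole (9.64% were not). Build GRCm38 and the tools RSEM, cutadapt, limma and bcl2fastq 2.20.0.422 stand in the submitters' processing notes; aligner and annotation are not stated there. Per the labels' protocols, polyA RNA was sequenced with a directional kit as single 60-base reads. RSEM divides reads that match several genes, so near-identical genes are uncertain. Symbols, positions and exonic lengths came from GENCODE M21 (36345 of 38293 identifiers matched). Columns were assigned by name; the columns called mutant name neither flox nor Cre and were taken as the triple heterozygote, an inference from the names. All 12 columns were used and 0 left out.

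Expected counts were rounded, then fitted by edgeR 4.0.16 under R 4.3.3 (glmQLFit, glmQLFTest, TMM, filterByExpr; 13964 genes holding 99.9% of counts). The 12 libraries entered 1 fit with 4 groups and 8 residual degrees of freedom, and p-values were Benjamini-Hochberg adjusted over all genes. The SE was taken as log2 fold change size over root F. CPM uses TMM-scaled totals; 1 read is 0.0452 to 0.0991 CPM. RPKM is CPM per kilobase of exon. No replicates were duplicates: chi-square over degrees of freedom was 2.05 to 13.3. The procedure was also run on simulated counts drawn with the same spread for all genes. The difference between effects was not simulated, and no outcome of this run is used here. Alternatives used DESeq2 1.42.0, limma-voom (limma 3.58.1), other scaling, filters and subsets, a replicate block and each replicate left out.

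Members and lists were chosen with earlier results of these data known. Genes named are Mib1, the members, per list and contrast the 3 with the smallest p (a selection is printed with values), the 5 most like Cacna1g and Cacna2d2, and markers; 1 gene like Cacna1g and 1 marker are not reported here. Pore sequences were read from the longest open reading frame of the named transcripts.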

Additional observations from a re-analysis of the deposited data

Results flagged for a closer look

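The effect on Cacna1g differed between the Mib1 mutant and the triple heterozygote by a test of the difference itself: log2 2.04 ± 0.20 SE (edgeR adjusted p = 0.000711). The mutant effect was 1.87 and the triple heterozygote effect -0.17. Cacna1g was picked with its mutant effect known, so this p-value gives only its place among all genes. The alternatives below reuse the same pools. Over 19 alternatives the difference was 1.87 to 2.21 and kept its call, with an adjusted p of at most 0.00754. Mib1 was at 52.2 ± 2.41 CPM in the Mib1 mutant and 68.7 ± 9.29 CPM in the triple heterozygote (SD, n = 3 each). Its own effects, each against its own control, differed by log2 -0.02 (interval -0.30 to 0.26). The control levels of Mib1 were unlike, at 105 ± 3.51 CPM in the Cre control and 136 ± 9.45 CPM in WT (SD, n = 3 each). Being from whole tissue, these values do not give Mib1 in cardiomyocytes alone. Between the Cre control and WT, which differ by the Cre transgene and a loxP-flanked allele, Cacna1g differed by log2 -0.01 (interval -0.33 to 0.30). In cardiomyocytes the Mib1 mutant carries a loxP-flanked allele exposed to Cre over the stop allele. The triple heterozygote carries a normal allele over the stop allele, with the missense alleles. The controls are unlike too, because the Cre control carries a loxP-flanked allele exposed to Cre and WT does not. The parts of these in the difference cannot be told apart. In the same contrast 3 of 5 erythroid markers were called lower. Gja5, Nppa and Lyz2 were also called lower, and Tagln was called higher, the same sign as Cacna1g. The erythroid sums were 3623 to 4302 CPM in the triple heterozygote pools and 2209 to 2575 CPM in the WT pools. Between the Mib1 mutant and the Cre control the erythroid sums overlapped. The part of any of these markers in the difference was not tested.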

How the results depend on the processing

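Over the members' log2 values, 510 comparisons with an alternative kept direction and call, 5 lost a call, 3 gained one and 22 changed sign, and none of these 22 was called in either analysis. The count of members called in the Mib1 mutant comparison was 2, and 1 with only the libraries compared, and 1 to 2 with a replicate left out. For the difference between effects it was 1, and 2 with no filter on low counts, and 1 to 3 with a replicate left out. It stayed at 0 in both other contrasts under every alternative run. Sign changes with a replicate left out lay within -0.14 to 0.02 for Cacna1h and -0.12 to 0.04 for Cacna2d1 in the mutant comparison. For triple heterozygote minus WT the ranges were -0.02 to 0.08 for Cacna1h, -0.05 to 0.14 for Cacna1d, -0.13 to 0.02 for Cacnb1 and -0.08 to 0.08 for Cacna2d2. For Cre control minus WT they were -0.13 to 0.09 for Cacna1g, -0.06 to 0.12 for Cacnb1, -0.10 to 0.02 for Cacnb2 and -0.11 to 0.23 for Cacna2d2. Without both pools with little Xist, Cacna2d1 was 0.01 in the mutant comparison and Cacna1g 0.07 between controls. Cacna2d2 in triple heterozygote minus WT was -0.00 with DESeq2 and -0.01 with the replicate block. The cause was not tested.

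All genes called in the mutant comparison numbered 210, and 93 (only the libraries compared) to 476 (no filter), with 398 by DESeq2, 318 with the block, 110 without both pools with little Xist, 123 and 116 without Cre control replicate 2 or 3, and 415 without Mib1 mutant replicate 2. For triple heterozygote minus WT there were 3, and 1 to 54 (DESeq2 22). For the difference between effects there were 72, and 28 to 246 (DESeq2 166), and between controls 39, and 23 to 144 (DESeq2 79). Same-numbered samples of different groups correlated at -0.09 to 0.17 in their deviations from the group mean, with 4 of 18 pairs above 0.1. Of 12 samples, 6 matched their own number best. Such weak correlations do not show that the numbers pair the samples, and they cannot exclude it. With the replicate number as a block, members called were 2, 0, 1 and 0 in the mutant, triple heterozygote, difference and control contrasts, and Cacna1g was 1.88 in the mutant comparison. Median-ratio scaling shifted the mutant, triple heterozygote and control contrasts by 0.00 on the log2 scale. Values of single members moved slightly, as Cacna1g from 1.87 to 1.86 in the mutant comparison. Within a library, ratios and shares do not depend on scaling, but those per exonic length depend on the length used.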
